A study of Mus musculus with 28 samples.

Results

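The semaphorins, plexins and neuropilins are the ligands, receptors and co-receptors of a signalling family known from axon guidance, and 31 of their genes were measured here. Members were the genes whose platform symbol is Sema3 to Sema7 plus a letter, Plxn plus a letter and number, Nrp1 or Nrp2, and they numbered 31 of the 18193 genes in the table: 20 semaphorins, 9 plexins and 2 neuropilins. Of their 78 probe sets, each gene kept the one that varied most over the 28 arrays, by SD. No measured difference between groups was used to choose the genes, although earlier results of these data were known. The SD of a probe set does hold the differences between groups, so the choice of probe set favours those that differ between lines or times.

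The RNA came from NIH3T3, fibroblasts grown from mouse embryos that divide without limit, and from a line labelled NIH3T3 K-ras and called K-ras here. Both lines were grown in medium with newborn calf serum and glutamine. Cells were taken at the medium change (0 h, labelled 25 mM glucose), which came 18 h after seeding, and 24, 48 and 72 h later in 25 mM or 1 mM glucose. This gives 14 groups of line, glucose and time with 2 arrays each, labelled as biological replicates. The labels do not say whether replicates were separate cultures, so p-values measure the spread between these arrays. The K-ras line is a single line of cells, and its difference from NIH3T3 cannot be credited to K-ras itself.

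Semaphorins of class 3 are secreted and act through a neuropilin that binds the ligand and a plexin that signals. Classes 4, 5 and 6 are membrane proteins that bind plexins directly, and Sema7a is held by a lipid anchor and binds plexin C1 and integrins that contain the beta 1 chain. Plexins carry a GTPase activating domain inside the cell that acts on small GTPases of the Ras and Rap type, and the usual outcome is loss of adhesion and retraction of the cell edge. Fibroblasts are known to make several of these ligands and both neuropilins, and neuropilins also bind VEGF.

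Every value is a log2 ratio to the gene's own median over the 28 arrays, so 0 is the middle array and 1 unit is a doubling of signal. Levels of different genes cannot be compared, and detection above background is unknown. The arrays are bulk measurements, in which fewer cells of a type and less RNA per cell cannot be told apart. Over the 500 non-member genes with the largest SD, 22 arrays lay with the other arrays of their labelled line and 6 lay with the opposite line. Among those labelled NIH3T3, these were both arrays at 1 mM and 24 h and the first replicate at 1 mM and 48 h. Among those labelled K-ras, they were the first replicates at 25 mM and 0 h, at 1 mM and 48 h, and at 1 mM and 72 h. Labels were kept in all main values, and results are also given for the 22 arrays in place. The hybridisation control bioC, an RNA added in fixed amount, was low on 12 arrays (-2.35 to -0.81), all labelled NIH3T3, and between -0.27 and 2.94 on the other 16. Replicate 1 of K-ras 25 mM 72 h had the highest bioC, against 0.80 for the next array, and the widest spread over genes, with an interquartile range of 0.78 against 0.53 for the next. Summed over 8 epithelial markers, the 25 mM arrays ranged from 1.27 to 4.62 in NIH3T3 and from -5.86 to 0.81 in K-ras, and 0 of these markers were higher and 3 lower by limma in the line average. For 11 fibroblast markers the sums were -15.4 to 11.5 and -8.85 to 14.5, with 2 higher and 0 lower. Of 9 endothelial, 6 leukocyte and 7 neuron and glia markers, 1, 1 and 1 were higher and 0, 0 and 2 lower. The part of these markers in the results was not tested.

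**Figure D1:**
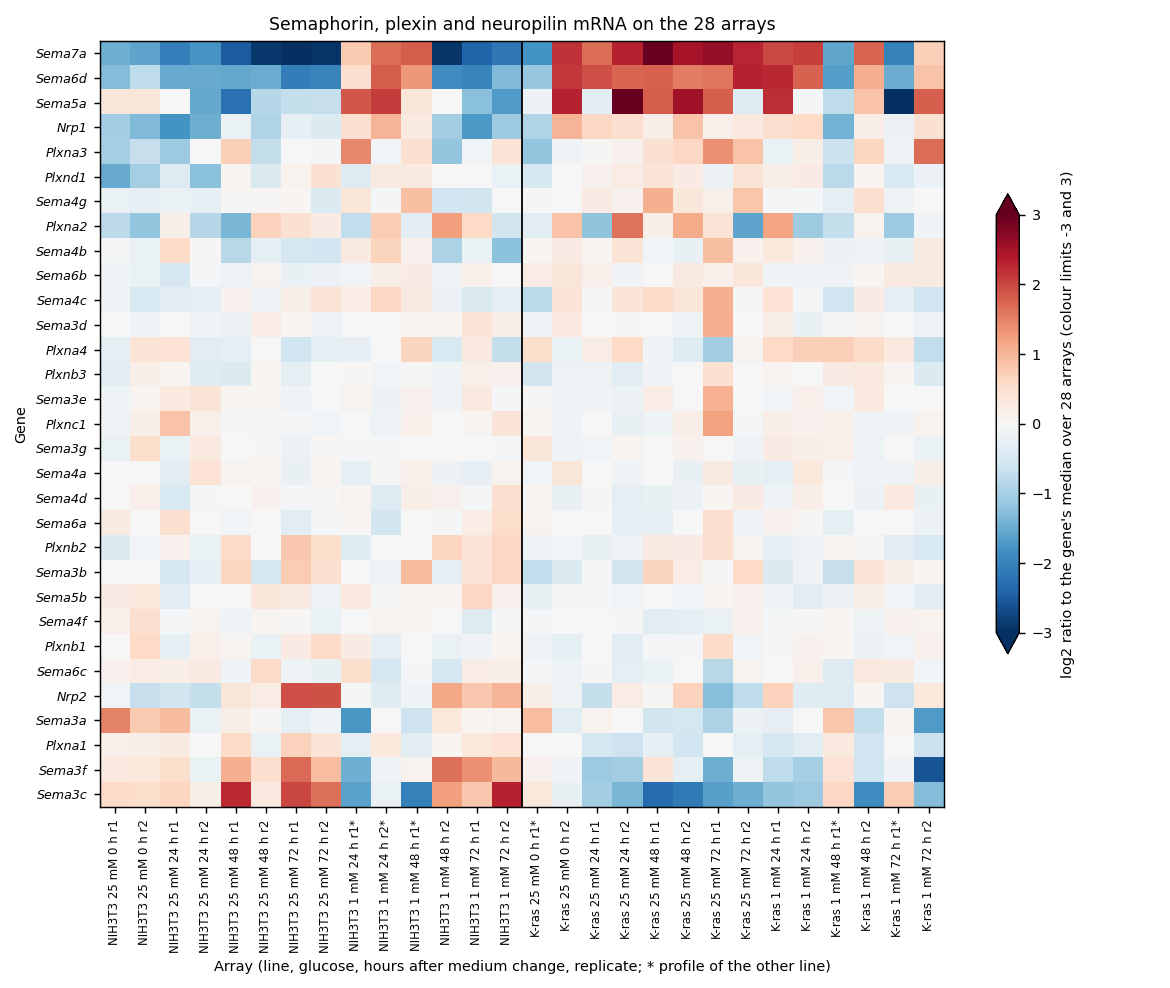
Heat map of log2 ratios to each gene's median for the 31 genes (rows, ordered by the line difference at 25 mM) on the 28 arrays (columns, by labelled line, glucose, hours and replicate; asterisks mark the 6 arrays with the profile of the other line). Sema7a and Sema6d at the top and Sema3c at the bottom switch colour with the line, and the arrays with asterisks take the colour of the other line.

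The members did not vary alike. The SD over the 28 arrays, by which each gene's probe set was chosen, ran from 0.17 for Sema4f to 2.20 for Sema7a. Sema6d (1.67), Sema5a (1.59) and Sema3c (1.39) came next to Sema7a. At the other end, Sema3g, Sema4a, Sema4d and Sema6b had SDs of 0.18, 0.21, 0.21 and 0.21.

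Between the lines, averaged over 0, 24, 48 and 72 h at 25 mM, K-ras arrays had more Sema7a, Sema6d, Nrp1, Plxnd1 and Sema6b mRNA and less Sema3c, Sema3f and Plxna1 mRNA than NIH3T3 arrays. Thus 5 of 31 members were higher and 3 lower (limma, adjusted p under 0.05 over all genes), or 8 of 31 beside 11.3% of all genes called. In each direction 5.67% of all genes were called. The median log2 fold change was 0.01 for the members and -0.04 for all genes. Among the 20 semaphorins 3 were higher and 2 lower, among the 9 plexins 1 and 1, and of the neuropilins only Nrp1 was called. With the 22 arrays in place, 12 members were called, 8 higher and 4 lower, beside 17.9% of all genes, 8.62% higher and 9.23% lower. Leaving out arrays by their line profile narrows the spread within lines by construction. At 25 mM the low bioC arrays are the NIH3T3 arrays, so the control and the line cannot be told apart there, and with bioC as a block 0 members were called.

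**Figure D2:**
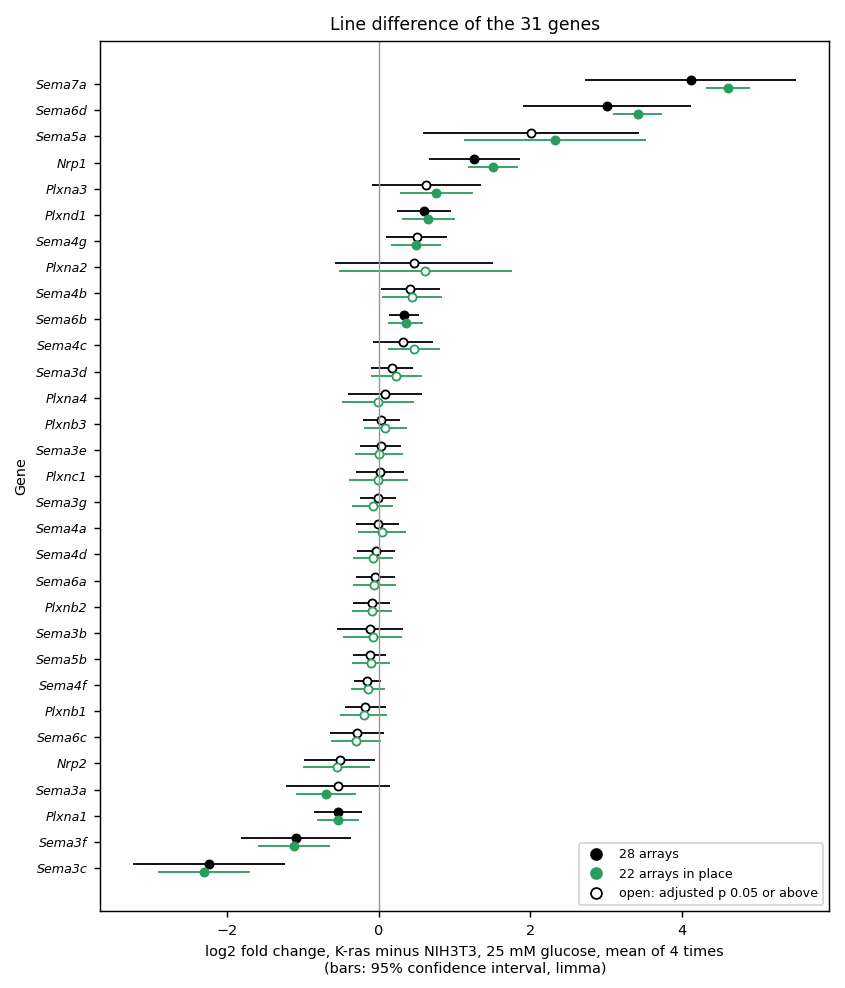
Log2 fold change of K-ras against NIH3T3 at 25 mM glucose, averaged over 0, 24, 48 and 72 h, for the 31 genes, with 95% confidence intervals from limma. Black marks the fit to 28 arrays and green the fit to the 22 arrays in place, and filled points have an adjusted p under 0.05. Sema7a (4.12) and Sema6d (3.01) lie farthest to the right and Sema3c (-2.24) farthest to the left.

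Sema7a, the lipid-anchored ligand of plexin C1 and beta 1 integrins, differed most. In NIH3T3 at 25 mM it stood at -1.47 and -1.57 at 0 h, -2.06 and -1.77 at 24 h, -2.49 and -2.89 at 48 h, and -3.04 and -2.94 at 72 h. In K-ras at 25 mM it stood at -1.80 and 2.17 at 0 h, 1.67 and 2.31 at 24 h, 2.97 and 2.46 at 48 h, and 2.63 and 2.28 at 72 h. Apart from replicate 1 at 0 h, which has the NIH3T3 profile, every K-ras array lay above every NIH3T3 array. The average log2 fold change was 4.12 ± 0.66 (SE, 8 arrays a line, limma adjusted p = 0.00434), and 4.61 ± 0.13 with the 22 arrays in place. The 3 labelled NIH3T3 arrays with the K-ras profile ranged from 0.77 to 1.81, and the 3 labelled K-ras arrays with the NIH3T3 profile from -2.03 to -1.56. Of the 6 arrays labelled NIH3T3 at 1 mM, those with low bioC had Sema7a at 0.77 and 1.68 (24 h, K-ras profile), -2.91 (48 h) and -2.14 (72 h), and those with high bioC had 1.81 (48 h, K-ras profile) and -2.40 (72 h). With bioC as a block the difference was 1.88 and was not called. A second probe set of Sema7a gave 0.58. Its receptor Plxnc1 stood at 0.01 ± 0.15 in the same comparison, with a 95% confidence interval from -0.30 to 0.33.

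Sema6d, a transmembrane ligand of plexin A1, separated the arrays in the same way. The 11 NIH3T3 arrays in place had a lowest value of -2.09, a median of -1.51 and a highest of -0.77, and the 11 K-ras arrays in place had 0.85, 1.77 and 2.31. The 3 NIH3T3 arrays with the K-ras profile stood between 0.50 and 1.83, above every NIH3T3 array in place. Its average difference at 25 mM was 3.01 ± 0.52 (SE, limma adjusted p = 0.00465), or 1.76 and not called with bioC as a block. The other 3 probe sets of Sema6d gave between -0.14 and 0.10, so this difference rests on a single probe set.

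Sema5a, a transmembrane ligand with thrombospondin repeats, varied widely within K-ras. At 25 mM the K-ras arrays stood at -0.17 and 2.30 at 0 h, -0.34 and 3.21 at 24 h, 1.81 and 2.53 at 48 h, and 1.80 and -0.40 at 72 h. The NIH3T3 arrays at 25 mM stood at 0.34 and 0.37, 0.01 and -1.54, -2.24 and -0.87, and -0.72 and -0.68 at the same times. Replicates of K-ras at 24 h thus lay over 3 units apart, and the lines overlapped. The difference of 2.01 ± 0.68 (SE) did not pass over all genes (limma adjusted p = 0.0657). It did pass with the 22 arrays in place (2.32 ± 0.55, limma adjusted p = 0.00972), with the mean over probe sets, with the SD filter and with the compared groups alone. Of its other probe sets, 2 probe sets gave 2.49 and 1.11 and the last gave -0.03.

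Sema6b, a transmembrane ligand of plexin A4, stood in NIH3T3 at 25 mM at -0.13 and -0.19 at 0 h, -0.50 and -0.05 at 24 h, -0.15 and 0.11 at 48 h, and -0.21 and -0.18 at 72 h. In K-ras it stood at 0.23 and 0.36, 0.16 and -0.10, -0.02 and 0.26, and 0.15 and 0.33, and the lines overlapped at 24 and 48 h. The difference was 0.33 ± 0.09 (SE, limma adjusted p = 0.0273), or 0.09 and not called with bioC as a block, and 0.29 and not called in an average without 0 h (limma adjusted p = 0.0887). Of the class 4 ligands, Sema4g stood at 0.50 ± 0.19 (SE) and was not called with 28 arrays, but was called with the 22 arrays in place (limma adjusted p = 0.038) and with the compared groups alone. Sema4b (0.41), Sema4c (0.32), Sema4d (-0.03), Sema4a (-0.02) and Sema4f (-0.15) were not called. Sema4d is the ligand of plexin B1, and Plxnb1 stood at -0.18 ± 0.13 (SE). The remaining transmembrane ligands Sema5b (-0.12), Sema6a (-0.05) and Sema6c (-0.29) were not called either.

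**Figure D3:**
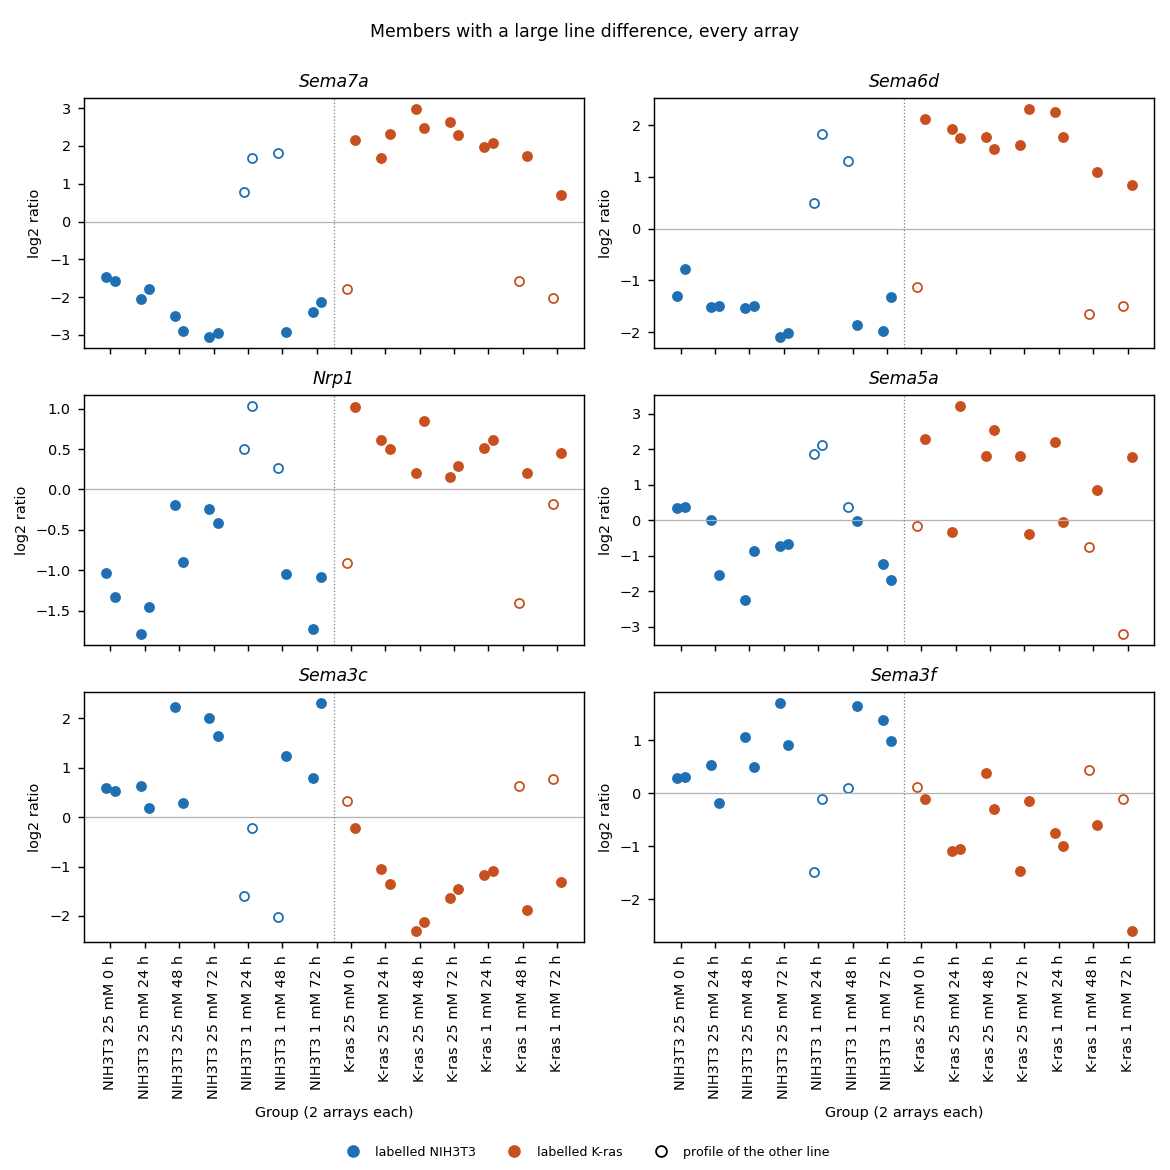
Log2 ratios of Sema7a, Sema6d, Nrp1, Sema5a, Sema3c and Sema3f on every array by group, with 2 arrays in each of the 14 groups. Blue marks arrays labelled NIH3T3, orange K-ras, and open circles the 6 arrays with the profile of the other line; for Sema7a the 11 NIH3T3 arrays in place lie between -3.04 and -1.47 and the 11 K-ras arrays in place between 0.71 and 2.97.

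Among the secreted class 3 ligands the called genes were lower in K-ras arrays. Sema3c, which signals through neuropilins with plexin A or D1 partners, stood in NIH3T3 at 25 mM at 0.58 and 0.54 at 0 h, 0.63 and 0.18 at 24 h, 2.23 and 0.28 at 48 h, and 2.01 and 1.65 at 72 h. In K-ras it stood at 0.33 and -0.22, -1.04 and -1.36, -2.30 and -2.12, and -1.64 and -1.45 at these times. The lines lay apart at 24, 48 and 72 h and nearest to each other at 0 h. Over the 11 arrays of each line in place, 1 mM included, Sema3c ran from 0.18 to 2.30 in NIH3T3 and from -2.30 to -0.22 in K-ras. The average difference was -2.24 ± 0.47 (SE, limma adjusted p = 0.00738), and the second probe set gave -2.27. With bioC as a block Sema3c stood at 0.14, the only called member whose sign turned there. Of the 6 arrays labelled NIH3T3 at 1 mM, those with low bioC had Sema3c at -1.59 and -0.21 (24 h, K-ras profile), 1.23 (48 h) and 2.30 (72 h), and those with high bioC had -2.03 (48 h, K-ras profile) and 0.80 (72 h).

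Sema3f, a ligand with preference for neuropilin 2, differed by -1.09 ± 0.34 (SE, limma adjusted p = 0.0486), just inside the threshold, with -0.56 and -0.48 from its other probe sets. In NIH3T3 at 25 mM it stood at 0.28 and 0.31 at 0 h, 0.54 and -0.19 at 24 h, 1.07 and 0.50 at 48 h, and 1.70 and 0.92 at 72 h, and in K-ras at 0.13 and -0.10, -1.09 and -1.05, 0.39 and -0.30, and -1.46 and -0.15. Its K-ras arrays in place, 1 mM included, ran from -2.59 to 0.39 with a median of -0.75, and its NIH3T3 arrays in place from -0.19 to 1.70 with a median of 0.92, so the lines overlapped. The value was -0.51 and not called with bioC as a block, and the call was also lost with the replicate block (limma adjusted p = 0.055). Sema3a, the classic collapsing ligand of neuropilin 1, stood at -0.54 ± 0.32 (SE) and was not called with 28 arrays, and at -0.70 with the 22 arrays in place (limma adjusted p = 0.0168). Sema3b (-0.12), Sema3d (0.18), Sema3e (0.02) and Sema3g (-0.02) were not called, with 95% confidence intervals that reach at most from -0.56 to 0.46.

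The promoters of 4 members are shown because their genes carry the line and time results: Sema7a and Sema6d were higher and Sema3c lower in K-ras arrays, and Nrp2 rose with time in NIH3T3. Each run is the 250 bases before a start site on the plus strand of GRCm38.p6, from RefSeq, with capitals for matches to GGGCGG, the SP1 box, and CACGTG, an E-box, on either strand. Sema6d has a second start site farther downstream, which is not shown and holds neither the SP1 box nor the E-box.
Sema7a, chr9:57939862-57940111: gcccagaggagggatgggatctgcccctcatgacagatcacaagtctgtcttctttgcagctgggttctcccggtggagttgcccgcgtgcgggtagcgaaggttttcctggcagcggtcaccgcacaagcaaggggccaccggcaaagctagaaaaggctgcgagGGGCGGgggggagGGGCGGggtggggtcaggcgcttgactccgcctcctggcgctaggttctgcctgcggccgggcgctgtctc
Sema6d, chr2:124089719-124089968: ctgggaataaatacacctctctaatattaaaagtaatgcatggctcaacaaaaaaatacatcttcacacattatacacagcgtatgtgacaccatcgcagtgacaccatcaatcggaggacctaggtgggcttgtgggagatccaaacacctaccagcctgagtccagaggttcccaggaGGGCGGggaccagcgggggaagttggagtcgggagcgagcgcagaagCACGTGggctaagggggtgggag
Sema3c, chr5:17574566-17574815: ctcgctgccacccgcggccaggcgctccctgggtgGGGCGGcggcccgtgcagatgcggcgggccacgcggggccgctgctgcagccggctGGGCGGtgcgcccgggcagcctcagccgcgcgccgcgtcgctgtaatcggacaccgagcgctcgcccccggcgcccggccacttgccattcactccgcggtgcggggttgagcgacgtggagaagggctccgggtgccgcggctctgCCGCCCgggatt
Nrp2, chr1:62703067-62703316: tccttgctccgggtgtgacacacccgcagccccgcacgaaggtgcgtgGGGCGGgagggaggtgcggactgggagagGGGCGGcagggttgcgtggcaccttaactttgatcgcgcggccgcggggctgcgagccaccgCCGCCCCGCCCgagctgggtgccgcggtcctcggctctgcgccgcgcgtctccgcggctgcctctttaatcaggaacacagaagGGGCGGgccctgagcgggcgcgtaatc
The SP1 box occurred 2 times before Sema7a, 1 time before Sema6d, 3 times before Sema3c and 5 times before Nrp2, where 2 matches overlap by 1 base. The E-box occurred 1 time, 23 bases before the Sema6d start. The AP-1 letters TGANTCA and the ETS letters CCGGAAG, searched on both strands, are not in these 4 windows. RefSeq entries were found for 26 of the 31 members, with 37 start sites. Of these 37 windows, 73.0% held the SP1 box, beside 32.7% of 32851 windows of all genes, and their median GC content was 64.0% beside 52.4%. AP-1 letters were in 8.11% of member windows and 6.75% of all, E-boxes in 5.41% and 6.02%, and ETS letters in 2.70% and 6.91%. The SP1 box was thus in all 4 windows shown, whichever way their genes differed, but not before the second Sema6d start.

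Of the receptors, the 9 plexins had line differences from -0.54 to 0.63. Plxnd1, the receptor that Sema3e binds without a neuropilin, was higher in K-ras arrays by 0.59 ± 0.17 (SE, limma adjusted p = 0.0311), and Plxna1, a partner of the neuropilins, was lower at -0.54 ± 0.15 (SE, limma adjusted p = 0.0298). In NIH3T3 at 25 mM Plxna1 stood at 0.16 and 0.21 at 0 h, 0.26 and 0.00 at 24 h, 0.55 and -0.20 at 48 h, and 0.70 and 0.38 at 72 h, and in K-ras at 0.01 and 0.00, -0.53 and -0.63, -0.26 and -0.58, and -0.01 and -0.28. The lines overlapped only through replicate 2 of NIH3T3 at 48 h and replicate 2 at 24 h. Both Plxnd1 and Plxna1 kept their sign with bioC as a block, at 0.37 and -0.27, without a call. Plxnd1 also lost its call with trended and robust variances (limma adjusted p = 0.0646) and in an average without 0 h (0.44, limma adjusted p = 0.166), and Plxna1 with the mean over probe sets (-0.36, limma adjusted p = 0.0723). A second probe set of Plxna1 gave -0.17. Plxna3 stood at 0.63 ± 0.34 (SE) and was called with the 22 arrays in place (0.76, limma adjusted p = 0.0306), and its second probe set gave 0.41. Plxna2, Plxna4, Plxnb2 and Plxnb3 stood at 0.46, 0.08, -0.10 and 0.03. The 95% confidence interval for Plxna2 ran from -0.58 to 1.51, so a difference of over 1 unit upward lies within it.

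Nrp1, the co-receptor for Sema3a and VEGF, was higher in K-ras. In NIH3T3 at 25 mM it stood at -1.03 and -1.33 at 0 h, -1.79 and -1.46 at 24 h, -0.20 and -0.90 at 48 h, and -0.25 and -0.41 at 72 h. In K-ras it stood at -0.91 and 1.03, 0.61 and 0.50, 0.20 and 0.85, and 0.16 and 0.29. All K-ras arrays in place lay above all NIH3T3 arrays in place, and the difference between the means at 25 mM was smallest at 72 h. The average difference was 1.26 ± 0.28 (SE, limma adjusted p = 0.00938), or 0.92 and not called with bioC as a block, and the 4 probe sets gave 0.64 to 1.26. Over the 22 arrays in place, glucose and time included, the ranges of the lines did not overlap for Nrp1, Sema6d and Sema7a (K-ras above) and Sema3c (K-ras below). These are 4 of 31 members, beside 4.27% of all genes.

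When each of the 16 arrays at 25 mM was left out in turn, Sema7a, Sema6d, Nrp1 and Sema3c were called in all 16 fits, with log2 fold changes of 3.62 to 4.61, 2.61 to 3.42, 1.02 to 1.50 and -2.48 to -2.00. Sema3f lost its call in 15 of the 16 fits, Plxnd1 in 10, Plxna1 in 9 and Sema6b in 8, with largest adjusted p-values of 0.116, 0.0978, 0.0771 and 0.0803 by limma. Only 4 members remained called without replicate 1 of NIH3T3 25 mM 72 h, without replicate 2 of K-ras 25 mM 0 h, or without replicate 2 of K-ras 25 mM 48 h. The count was 5 when the array left out was either NIH3T3 array at 0 h, the first NIH3T3 replicate at 24 or 48 h, or either K-ras array at 24 h, all at 25 mM.

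At single times fewer members passed. At 25 mM, 0 members were called at 0, 24 and 48 h, beside 0.011%, 0.066% and 0.0165% of all genes by limma, and 3, 5 and 4 of the 31 had an unadjusted p under 0.05, beside 4.68%, 15.3% and 10.3% of all genes. With the 22 arrays in place the counts were 3, 3 and 4, beside 2.25%, 6.29% and 5.49%, and Sema7a, Sema6d and Nrp1 were among them at each of these times. At 72 h, 1 member was called, Nrp2 (-2.94 ± 0.44, SE, limma adjusted p = 0.0178), beside 0.726% of all genes called, 0.418% lower and 0.308% higher. That call was lost without replicate 1 or 2 of NIH3T3 25 mM 72 h (limma adjusted p = 0.215 and 0.212) or replicate 1 of K-ras 25 mM 72 h (0.173), with bioC as a block and after a second quantile normalisation, with values from -2.94 to -2.19 in these 5 fits. Without replicate 2 of K-ras 25 mM 72 h, 7 members were called, Nrp2 among them, beside 16.6% of all genes. In the 22 arrays in place the 72 h count was 5, beside 8.89%, with Sema7a at 5.44, Sema6d at 4.01, Nrp2 at -2.94, Sema3c at -3.37 and Sema3f at -2.11. Nrp1 at 72 h stood at 0.55 ± 0.56 (SE) with 28 arrays.

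At 1 mM and 72 h, 0 members were called between the lines, beside 0.253% of all genes, and 6 had an unadjusted p under 0.05, beside 12.6%. One of the K-ras arrays there has the NIH3T3 profile. Without it the 1 call was Sema3f, beside 1.57% of all genes, and with the 22 arrays in place 6 members passed, beside 8.09% of all genes (3.42% higher, 4.66% lower): Sema7a (2.98 ± 0.31), Sema6d (2.49) and Nrp1 (1.86) were higher, and Sema3f (-3.77), Sema3c (-2.86) and Sema3a (-1.78) lower. This rests on a single K-ras array, assumed to vary like the other groups.

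Over time at 25 mM, NIH3T3 gained Nrp2, Plxnd1 and Plxnb2 mRNA between 0 and 72 h. These were 3 of 31 members called and all 3 rose, beside 5.52% of all genes called, 3.68% as rising and 1.84% as falling. The median log2 change was -0.04 for the members and -0.07 for all genes. Among the 4 arrays all were in place and low in bioC. The 11 fibroblast markers had a median change of 1.56, with 1 called higher, and their part in the result was not tested.

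Nrp2, the co-receptor preferred by Sema3f and also a receptor for VEGF-C, had the largest rise. In NIH3T3 at 25 mM it stood at -0.09 and -0.69 at 0 h, -0.55 and -0.71 at 24 h, 0.37 and 0.22 at 48 h, and 1.92 and 1.90 at 72 h. The 72 h arrays lay above all earlier ones. The change from 0 to 72 h was 2.30 ± 0.44 (SE, limma adjusted p = 0.00844), that from 24 to 72 h was 2.54 ± 0.44 (SE, limma adjusted p = 0.00753), and the 4 probe sets gave 1.85 to 2.46 from 0 to 72 h. In K-ras at 25 mM Nrp2 stood at 0.19 and -0.14, -0.71 and 0.23, 0.03 and 0.69, and -1.29 and -0.76 at the same times. The lines therefore overlapped at 0, 24 and 48 h and stood apart at 72 h. The change from 0 to 72 h in K-ras, -1.05 ± 0.44 (SE), was not called (limma adjusted p = 0.287).

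The difference between the lines in this change of Nrp2 was -3.35 ± 0.62 (SE) from 0 to 72 h and -3.33 ± 0.62 from 24 to 72 h. Neither passed over all genes (limma adjusted p = 0.188 and 0.151). It passed from 24 to 72 h with the 22 arrays in place (limma adjusted p = 0.0496, beside 0.0879% of all genes), with the compared groups alone, and, from both starts, with the mean over the gene's probe sets. Without replicate 2 of K-ras 25 mM 72 h it also passed, together with Plxnc1, Sema3d and Sema3e, which stood at 1.21, 1.10 and 1.05 on the remaining replicate 1, the array that stands apart, and at -0.03, -0.02 and -0.02 on replicate 2. In those fits 8.89% and 11.3% of all genes were called. The numbers of members called for the difference between the lines were 0 and 0, beside 0.0055% of all genes for each start, and with the 22 arrays in place the number from 0 h was 0, beside 0.033%.

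**Figure D4:**
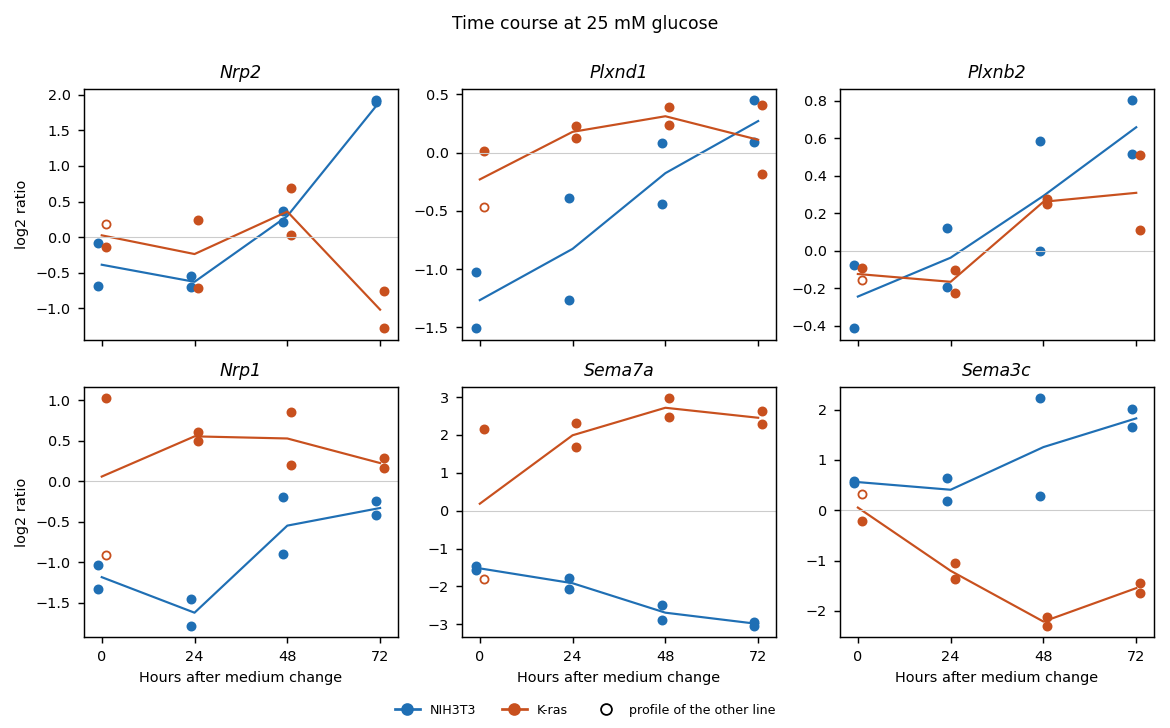
Log2 ratios at 25 mM glucose against hours after the medium change for Nrp2, Plxnd1, Plxnb2, Nrp1, Sema7a and Sema3c, with points for arrays, lines through the means of 2 arrays, blue for NIH3T3, orange for K-ras and open circles for the array with the other line's profile. Nrp2 in NIH3T3 reaches 1.92 and 1.90 at 72 h, where the K-ras arrays stand at -1.29 and -0.76.

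Plxnd1 rose in NIH3T3 from -1.51 and -1.02 at 0 h through -0.39 and -1.26 at 24 h and 0.08 and -0.44 at 48 h to 0.09 and 0.45 at 72 h. The change was 1.54 ± 0.34 (SE, limma adjusted p = 0.0152). The K-ras arrays stood at -0.47 and 0.01 at 0 h, 0.13 and 0.23 at 24 h, 0.39 and 0.24 at 48 h, and -0.18 and 0.40 at 72 h, so the lines overlapped at 72 h. Plxnb2, the receptor of Sema4c, rose from -0.41 and -0.07 at 0 h through 0.12 and -0.20 at 24 h and 0.58 and 0.00 at 48 h to 0.80 and 0.52 at 72 h, by 0.90 ± 0.23 (SE, limma adjusted p = 0.0336). That call was lost after a second quantile normalisation (0.75, limma adjusted p = 0.0507) and with the SD filter (limma adjusted p = 0.0541). K-ras arrays stood at -0.16 and -0.09 at 0 h and at 0.51 and 0.11 at 72 h for Plxnb2. All 3 calls depended on single arrays: Plxnd1 and Plxnb2 lost theirs without any of the 4 arrays, at 1.30 to 1.78 and 0.73 to 1.07, and Nrp2 kept its call only without replicate 1 at 0 h (2.61) and lost it without replicate 2 at 0 h (limma adjusted p = 0.103) or replicate 1 or 2 at 72 h (2.29 and 2.31, limma adjusted p = 0.0865 and 0.0703). The count of members was 1 in the first of these fits and 0 in the other 3.

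No ligand was called from 0 to 72 h in NIH3T3 in the fit to 28 arrays. Sema7a had a change of -1.47 ± 1.32 (SE), Sema6d one of -1.01 ± 1.05 and Sema3a one of -1.35 ± 0.65. With the 22 arrays in place, where the SE of Sema7a is 0.25, these 3 fell (limma adjusted p = 0.0041, 0.0379 and 0.0262), and 6 members in all were called, beside 10.7% of all genes (6.94% rising, 3.71% falling). Sema3a stood at 1.49 and 0.79 at 0 h and at -0.29 and -0.12 at 72 h in NIH3T3. Its other probe sets gave changes of -0.38 and -0.70, and those of Sema7a and Sema6d were smaller than the probe set used, at -0.05 for Sema7a and -0.37 to -0.12 for Sema6d. From 0 to 24 h in NIH3T3, 0 members were called, beside 0.0055% of all genes, and 0 had an unadjusted p under 0.05, beside 4.55%. From 24 to 72 h Nrp2 was the 1 member called, beside 6.15% of all genes, 4.06% rising and 2.08% falling, and without replicate 1 at 24 h Plxnd1 joined it, beside 2.32%. Nrp2 lost that call without replicate 2 at 24 h (2.47, limma adjusted p = 0.0519) or either 72 h array (2.54 and 2.55, limma adjusted p = 0.0927 and 0.0593).

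In K-ras at 25 mM, 0 members were called from 0 to 72 h or from 24 to 72 h by limma, beside 0% of all genes for each, and 4 and 2 members had an unadjusted p under 0.05, beside 15.3% and 10.2%. The 0 h group holds the array with the NIH3T3 profile. With the 22 arrays in place 0 members were called for either span, beside 0.033% and 0.0385% of all genes. Without replicate 2 at 72 h, Plxnc1, Sema3d and Sema3e were called for both spans, on the array that stands apart, beside 2552 and 2321 of the 18193 genes. Sema3c went from -0.22 on the 0 h array in place to -1.64 and -1.45 at 72 h, and the change of -1.60 ± 0.95 (SE) over both 0 h arrays was not called.

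Glucose, the variable the study set out to follow, moved no member past the threshold with 28 arrays. Averaged over both lines and 24, 48 and 72 h, 0 of 31 members were called by limma, beside 0% of all genes, with 1 member at an unadjusted p under 0.05, beside 5.04%. Log2 fold changes of 1 against 25 mM ranged from -0.25 to 0.28, with a median of -0.03 beside 0.00 for all genes. For Nrp1 the average was 0.04, with a 95% confidence interval from -0.44 to 0.53, and for Sema7a it was 0.05, from -1.09 to 1.19. The average includes the 5 misplaced arrays at 1 mM, so it mixes the profiles of the lines.

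Where all 4 arrays were in place, glucose could be read without this mixing. In NIH3T3 at 72 h, 0 members were called by limma, beside 0.011% of all genes, and 0 with the 22 arrays in place, beside 0.044%. Nrp2 stood at 0.80 and 1.01 at 1 mM against 1.92 and 1.90 at 25 mM, without overlap, a difference of -1.01 ± 0.44 (SE, limma adjusted p = 0.688). The array at 0.80 is high in bioC and the other 3 are low, and the part of bioC in this difference was not tested. Sema6a, a transmembrane ligand of plexins A2 and A4, stood at 0.23 and 0.53 against -0.33 and -0.04, a difference of 0.57 ± 0.24 (SE, limma adjusted p = 0.678), and these were the 2 members with an unadjusted p under 0.05, beside 6.73% of all genes. Nrp1 stood at -1.72 and -1.09 against -0.25 and -0.41, a difference of -1.08 ± 0.56 (SE), with a 95% confidence interval from -2.26 to 0.11. Other probe sets gave differences of -0.07 and 0.10 for Sema6a and of -0.95, -0.41 and -0.03 for Nrp1. In K-ras at 24 h, 0 members were called, beside 0% of all genes, 0 had an unadjusted p under 0.05, beside 0.643%, and the differences lay between -0.36 and 0.41. For Sema7a there the 95% confidence interval ran from -2.75 to 2.82, so a change of over 2 units either way lies within it. That width includes the spread from the misplaced arrays of other groups.

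**Figure D5:**
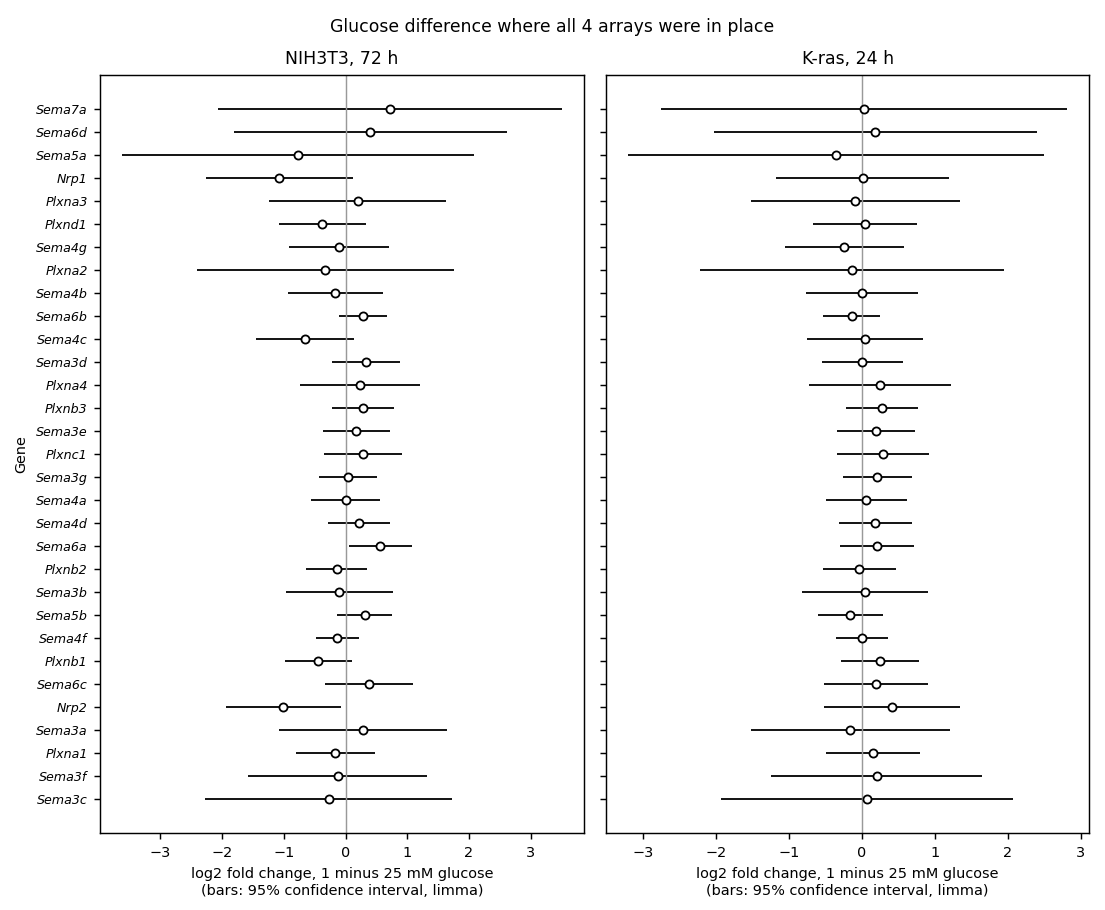
Log2 fold change of 1 mM against 25 mM glucose with 95% confidence intervals from limma for the 31 genes, in NIH3T3 at 72 h (left) and K-ras at 24 h (right), where all 4 arrays had the profile of their labelled line. Points in K-ras lie between -0.36 and 0.41, and the interval of Nrp2 in NIH3T3 at 72 h (-1.94 to -0.08) is below 0 although its adjusted p is 0.688. Intervals use the spread over all 14 groups, misplaced arrays included.

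In K-ras at 48 and 72 h, 0 and 0 members were called, beside 0% and 0.181% of all genes, and 0 and 5 had an unadjusted p under 0.05, beside 4.17% and 15.3%. Each 1 mM group there holds an array with the NIH3T3 profile. At 72 h Sema7a stood at -2.03 on that array and 0.71 on the other at 1 mM, against 2.63 and 2.28 at 25 mM. The difference of -3.11 ± 1.32 (SE) became -1.74 ± 0.31 with the 22 arrays in place, where Sema7a was the 1 member called (limma adjusted p = 0.00829), beside 3.74%, on a single 1 mM array. Sema6d stood at -1.50 and 0.85 against 1.61 and 2.31. Without replicate 2 of K-ras 25 mM 72 h, Plxnb2, Plxnc1, Sema3d, Sema3e and Sema4c were called as lower at 1 mM, each measured against the array that stands apart, beside 13.8% of all genes.

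Other genes of the pathway were read from lists of 30 co-receptors, shared ligands and proteases and of 45 measured plexin effectors. In the line average at 25 mM, 4 of the 30 were higher and 2 lower, beside 11.3% of all genes. Nrcam, an adhesion molecule that pairs with neuropilins, was higher by 3.54 ± 0.72 (SE), and Vegfc, a growth factor that binds neuropilin 2, by 1.34 ± 0.39. Vegfb, another VEGF, was higher by 0.80 ± 0.25, and Flt1, a VEGF receptor, was lower at -1.88 ± 0.54. Of the 45 effectors 3 were higher and 3 lower. Evl, an actin regulator of the Ena/VASP type, was higher by 1.50 ± 0.22 and Cdk5, a kinase in semaphorin 3A signalling, by 0.88 ± 0.23. The small GTPases Rhob (-1.54 ± 0.38) and Rras2 (-1.22 ± 0.32) were lower. From 0 to 72 h in NIH3T3, 0 of the 30 were called, and of the 45 effectors 4 rose and 1 fell, beside 5.52% of all genes. The plexin-bound exchange factor Arhgef12 (1.45 ± 0.38), the adaptors Nck2 (1.24 ± 0.22) and Nck1 (1.04 ± 0.24) rose, and the plexin-binding GTPase Rnd1 fell by 2.62 ± 0.73.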

How the data were processed

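The deposited values are log2 ratios of Affymetrix signals to each probe set's own median over the 28 arrays: in 45101 of 45101 probe sets the median ratio was 1 within 0.001. The submitters' processing notes name RMA, with no version. A genome build is not given in the sources used here. Platform annotation gave 34945 probe sets a single gene symbol and 932 several, and the latter were left out, as were those with none. For each of the 18193 genes, the probe set that varied most by SD was kept.

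Groups were compared with limma 3.58.1 in R 4.3.3: a mean for each of 14 groups, empirical Bayes variances and Benjamini-Hochberg adjustment over all genes. An adjusted p under 0.05 was called. The script was tested on simulated data. The 2 arrays a group limit the precision. Replicate numbers did not pair samples: over 91 pairs of groups the deviations of same-numbered arrays correlated at -0.68 to 0.69, median -0.04. Alternatives were the mean over probe sets, a second quantile normalisation, an SD filter, replicate and bioC blocks, other fits and left-out arrays. All members may be named, with the value on every array for those called; of other pathway genes, the 4 largest called changes are named. Members and lists were chosen with earlier results of these data known. Promoters came from RefSeq, GRCm38.p6.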

Additional observations from a re-analysis of the deposited data

Results flagged for a closer look

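For 7 genes, at the times given here, every array of NIH3T3 moved one way with 1 mM glucose and every array of K-ras the opposite way. The difference between the lines was not tested for any of them. The 7 genes are 22.6% of the members, beside 19.4% of all genes with this pattern at any of the 3 times (7.89% at 24 h, 5.66% at 48 h and 7.27% at 72 h), so the members' share is near the background. At 24 h the log2 change at 1 mM was -0.59 for Plxnc1 in NIH3T3 and 0.28 in K-ras, -0.38 and 0.19 for Sema3e, and 0.39 and -0.24 for Sema4g. Both NIH3T3 1 mM arrays of that time have the K-ras profile. At 48 h Sema5a stood at 1.73 in NIH3T3 and -2.12 in K-ras, where replicate 1 of each line at 1 mM has the profile of the other line. At 72 h the changes were -1.01 in NIH3T3 and 0.87 in K-ras for Nrp2, 0.40 and -2.29 for Sema6d, and 0.72 and -3.11 for Sema7a. Replicate 1 of K-ras 1 mM 72 h has the NIH3T3 profile.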

How the results depend on the processing

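Apart from fits without single arrays, 122 counts of called members under the alternatives stayed near the main count and 22 moved. In most comparisons the main count was 0, and a count that was 0 again was taken as near. The tally is thus no measure of how stable the calls are. Without the 6 arrays the counts were 3, 3, 4 and 5 for the lines at 0, 24, 48 and 72 h at 25 mM, 6 at 1 mM and 72 h, 6 and 4 for NIH3T3 from 0 and from 24 to 72 h, 1 for the difference between the lines from 24 to 72 h, and 1 for glucose in K-ras at 72 h. From 24 to 72 h in NIH3T3, 10.5% of all genes were called in that fit. With the compared groups alone the counts were 4, 2 and 4 for the lines at 24, 48 and 72 h, beside 5.65%, 1.52% and 2.28% of all genes. They were 13 and 8 for NIH3T3 over time and 1 for the difference from 24 to 72 h, beside 27.0%, 19.5% and 0.385%. With the mean over probe sets they were 2 for the lines at 72 h and 1 for each difference in time course, beside 1.39%, 0.0165% and 0.011%. The lines at 72 h gave 0 after a second quantile normalisation and 4 with the SD filter (3.47% of the genes left), which left 18 of the 31 members. With bioC as a block the line counts were 0 at 72 h and 0 in the average, and Sema3c reversed to 0.14; the cause was not tested. With single arrays left out, counts ranged from 4 to 9 in the line average, 0 to 7 at 72 h, 0 to 1 at 1 mM, 0 to 1 and 0 to 2 for NIH3T3 over time, 0 to 3 and 0 to 3 for K-ras, 0 to 4 and 0 to 4 for the difference in time course and 0 to 5 for glucose in K-ras at 72 h. An arm left with 1 array was assumed to vary like the other groups. The replicate block left 7 members in the line average (Sema3f lost its call), beside 10.7% of all genes, and 1 for the lines at 72 h, beside 0.214%. It left 3 and 1 for NIH3T3 over time, beside 5.13% and 5.47%. An average without 0 h, chosen after seeing the data, called 7 members, beside 11.3% of all genes. Of these 7, 6 were shared with the full average. The glucose average could not be run without the 6 arrays, because a group was then empty.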
